A study of Mus musculus with 18 samples.

Results

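Caveolae are small flask-shaped pits of the plasma membrane that flatten when the membrane is stretched and so release a reserve of surface. Their coat is built from caveolins, which insert into the inner leaflet, and from cavins, which assemble around the pit, while the ATPase EHD2 holds the neck and the F-BAR protein PACSIN2 shapes the curved membrane. Other proteins report membrane stretch or swelling directly as an ion current: PIEZO1 and PIEZO2 are cation channels opened by tension, TMEM63A belongs to a family of channels gated by high tension or osmotic stress, and LRRC8A is the obligatory subunit of the anion channel that opens when cells swell. The transcripts of 10 such genes, taken as a list of names with no threshold on their values, were followed here out of 53801 genes in the count table: the caveolin genes Cav1 and Cav2, the cavin genes Ptrf (now Cavin1) and Prkcdbp (now Cavin3), Ehd2, Pacsin2, Piezo1, Piezo2, Tmem63a and Lrrc8a.

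The study asked how membrane tension bears on the exit of mouse embryonic stem cells (ESCs) from naive pluripotency. WT cells were E14 ESCs, and iEZR_CA cells were E14 ESCs carrying a PiggyBac transgene for a phosphomimetic, constitutively active form of ezrin, a protein that tethers the membrane to the actin cortex, followed by IRES-driven mCherry and induced with doxycycline. Each line was sampled on gelatin-coated plates in N2B27 with PD0325901, CHIRON and LIF (ESC), after 24 h in N2B27 alone (T24) and after 48 h (T48), as 3 biological replicates for every one of 6 groups. Doxycycline, from about 16 h before exit, is recorded for iEZR_CA cells only, so the transgene and the drug cannot be told apart in any difference between the lines. Whether the iEZR_CA line is 1 clone is not given in the sources used here.

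The libraries held between 10940752 and 33276622 counts on genes. Ezr, whose reads from the transgene and from the endogenous gene are not separated in the table, had a mean normalized count of 24819 ± 499 in iEZR_CA against 11763 ± 277 in WT ESCs (SD, n = 3) and of 16215 ± 165 against 10096 ± 413 at T48. The summed normalized count of 6 naive markers fell from a median of 98144 in WT ESCs to 23348 at T24 and 1898 at T48, and from 91540 in iEZR_CA ESCs to 45383 and 10079. The libraries labelled T24 and T48 therefore differ between the lines in how much naive marker RNA they held, and in bulk RNA fewer cells of a kind and less RNA per cell cannot be told apart.

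Of the 10 genes, 8 had a promoter in the RefSeq table of GRCm38.p6 and lie outside the chromosome of Piezo2, which was not searched; Prkcdbp had no entry. The 250 bases before the RefSeq start are printed for 3 genes with different behaviour in these libraries, namely Cav1, which stayed at the limit of detection, Ehd2, which rose on exit, and Tmem63a, which fell at T48. Each is written 5′ to 3′ on the strand of its gene, with the GC box (letters GGGCGG on either strand) in capitals. Cav1 spans chr6:17306085-17306334 on the plus strand, Ehd2 chr7:15967536-15967785 on the minus strand and Tmem63a chr1:180942268-180942517 on the plus strand. The gene coordinates given further on are those of GENCODE, where Ehd2 begins at 15967567 and Tmem63a at 180942344. The windows of Ehd2 and Tmem63a therefore reach into the genes as annotated there. Of the windows not printed, that of Ptrf (chr11:100970618-100970867) lies wholly inside its GENCODE gene, and that of Lrrc8a (chr2:30237519-30237768) reaches into its gene.
Cav1: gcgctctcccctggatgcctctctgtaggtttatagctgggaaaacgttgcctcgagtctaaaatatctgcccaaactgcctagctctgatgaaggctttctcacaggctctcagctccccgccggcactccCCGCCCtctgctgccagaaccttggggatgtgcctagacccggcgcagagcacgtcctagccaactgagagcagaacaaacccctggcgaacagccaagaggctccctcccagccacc
Ehd2: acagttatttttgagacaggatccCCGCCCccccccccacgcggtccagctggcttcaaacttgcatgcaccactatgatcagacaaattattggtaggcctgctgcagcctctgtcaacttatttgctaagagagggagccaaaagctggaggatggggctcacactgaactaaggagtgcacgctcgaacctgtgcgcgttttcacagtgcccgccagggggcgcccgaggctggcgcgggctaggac
Tmem63a: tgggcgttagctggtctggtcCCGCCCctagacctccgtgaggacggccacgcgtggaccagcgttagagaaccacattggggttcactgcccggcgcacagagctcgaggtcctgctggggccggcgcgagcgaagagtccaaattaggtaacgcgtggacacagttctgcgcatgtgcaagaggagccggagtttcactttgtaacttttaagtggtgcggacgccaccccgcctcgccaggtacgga

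All 8 promoters held at least 1 GC box, which 32.7% of 32851 promoters of this length hold, so the element stood in front of barely detected and well expressed genes of the set alike. Against a median of 6 CpG dinucleotides over all promoters, Cav1 and Cav2 held 10 each, Ptrf and Ehd2 12 each, Pacsin2 18, Tmem63a 23, Lrrc8a 25 and Piezo1 26, so all 8 lay above that median. Of the other letters searched on both strands, the TEAD motif GGAATG (12.6% of promoters) was found in Ptrf alone, the AP-1 motif TGANTCA (6.75%) in Cav2 alone, the E-box CACGTG (6.02%) in Lrrc8a alone, the TATA letters TATAAA (12.4%) in Piezo1 and Cav1, and the TCF/LEF motif CTTTGAA (4.46%) in none of the 8. These are matches of letters in a window and not measured sites, and every base of the Ptrf window is inside the gene as annotated by GENCODE.

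The 10 genes spanned a wide range of levels per exon length. Pacsin2 and Piezo1 lay above most expressed genes, with mean RPKM (counts per kilobase of exon, scaled to the gene counts of the library) over the 18 libraries of 30.5 and 17.1, while the median of all tested genes was 3.73. Ptrf (2.66), Tmem63a (2.13), Lrrc8a (1.67), Ehd2 (0.860) and Prkcdbp (0.524) lay below that median. Piezo2 averaged 0.0422 RPKM, Cav2 0.0120 and Cav1 0.00634, so the caveolin genes were the least expressed of the set while a membrane-shaping partner, Pacsin2, was the most expressed.

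**Figure D1:**
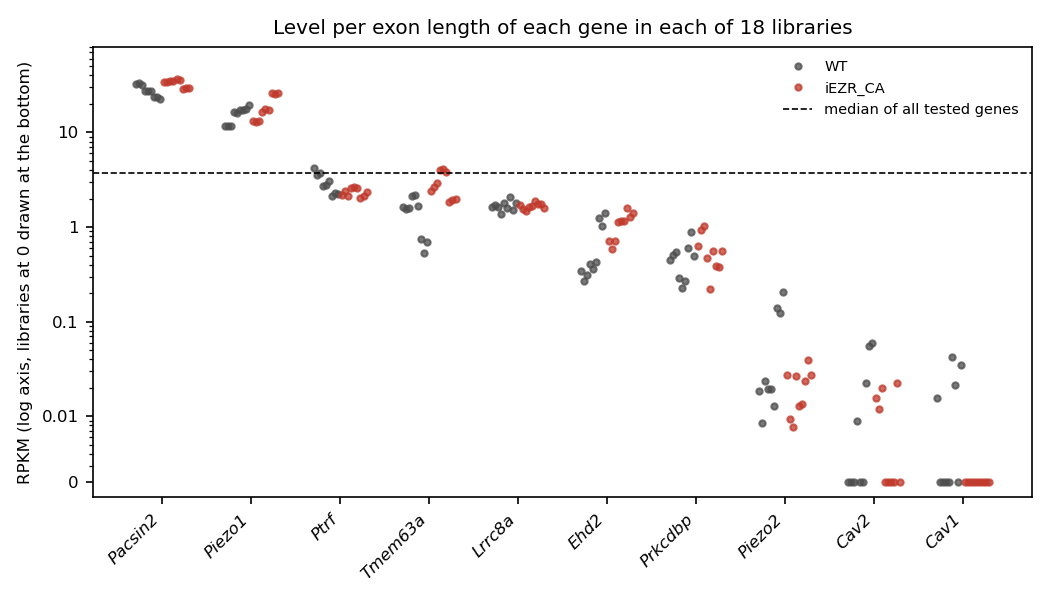
RPKM (log axis, libraries at 0 drawn at the bottom) of each of the 10 genes in each of 18 libraries, WT in grey and iEZR_CA in red, with the median of all tested genes (3.73 RPKM) as a dashed line. Pacsin2 and Piezo1 lie above the line in all libraries, and 14 libraries for Cav1 and 10 for Cav2 lie at 0.

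The caveolin transcripts were at or near the limit of detection in ESCs and after exit. Cav1 (ENSMUSG00000007655, GRCm38 chr6:17306335-17341452, plus strand), the main caveolin outside muscle, received 8 counts in all 18 libraries together, and no library had more than 3. Its counts were 1, 0 and 0 in WT ESCs, 0, 0 and 2 at T24 and 2, 0 and 3 at T48, and 0 in all 9 iEZR_CA libraries. A count of 0 out of 191952128 gene counts in the 9 iEZR_CA libraries allows up to 0.0156 CPM by the limit of 3 counts and up to 0.0192 CPM by the exact Poisson interval (CPM, counts scaled to the gene counts of the libraries), and the 8 counts in 202191880 of the WT libraries correspond to 0.0396 CPM (95% exact Poisson interval 0.0171 to 0.0780, counting error only). The 2 Poisson intervals overlap narrowly, from 0.0171 to 0.0192 CPM, which does not decide whether Cav1 differed between the lines. The pooled counts were not tested.

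Cav2 (ENSMUSG00000000058, chr6:17281185-17289115, plus strand), the partner that needs CAV1 to reach the membrane, received 15 counts in all. It had 0 in each WT ESC library, 1, 0 and 0 at T24 and 2, 2 and 5 at T48, and in iEZR_CA it had 1 in each ESC library, 0 in each T24 library and 0, 2 and 0 at T48. Counts at WT T48 came to 0.142 CPM (95% exact Poisson interval 0.0651 to 0.271), and all 3 of these libraries were above the 3 libraries of WT ESCs. Neither caveolin gene passed the filter on low counts, so neither has a test in the comparisons that follow. When that filter was dropped, edgeR gave Cav2 an adjusted p of 0.0067 between WT ESC and WT T48 and of 0.16 between the lines at T48, and gave Cav1 0.3 and 0.081 in the same comparisons. Cav3, the muscle caveolin, had 0 counts in all libraries, and Sdpr (now Cavin2) had between 1 and 11 counts per group of 3 libraries. Murc (now Cavin4) was detected in all groups, with mean normalized counts from 29.1 in WT T48 to 79.7 in WT T24 (0.682 and 1.81 RPKM).

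The 8 other genes passed the filter, and 6 of them differed between iEZR_CA and WT in ESCs (edgeR quasi-likelihood test, adjusted p under 0.05 over 18469 genes), 5 higher and 1 lower in iEZR_CA. With 54.5% of all tested genes called in that comparison, a total of 6 of 8 is not far from what the whole table shows. The split of 5 higher and 1 lower leans more to higher than that of all genes, 26.4% higher and 28.1% lower. It covers 8 genes and was not tested. At T24 the test called 3 of 8, all higher in iEZR_CA (60.9% of all genes, 30.8% higher and 30.1% lower), and at T48 it called 4, of which 3 were higher and 1 was lower (61.1%, with 31% higher and 30.1% lower). The spread between replicates was small for the whole table, so small differences pass the test, and the size of each difference is given with it. Over 2-fold differences were 1 of 8 in ESCs (11.9% of all genes), 1 at T24 (14.9%) and 2 at T48 (16.1%).

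**Figure D2:**
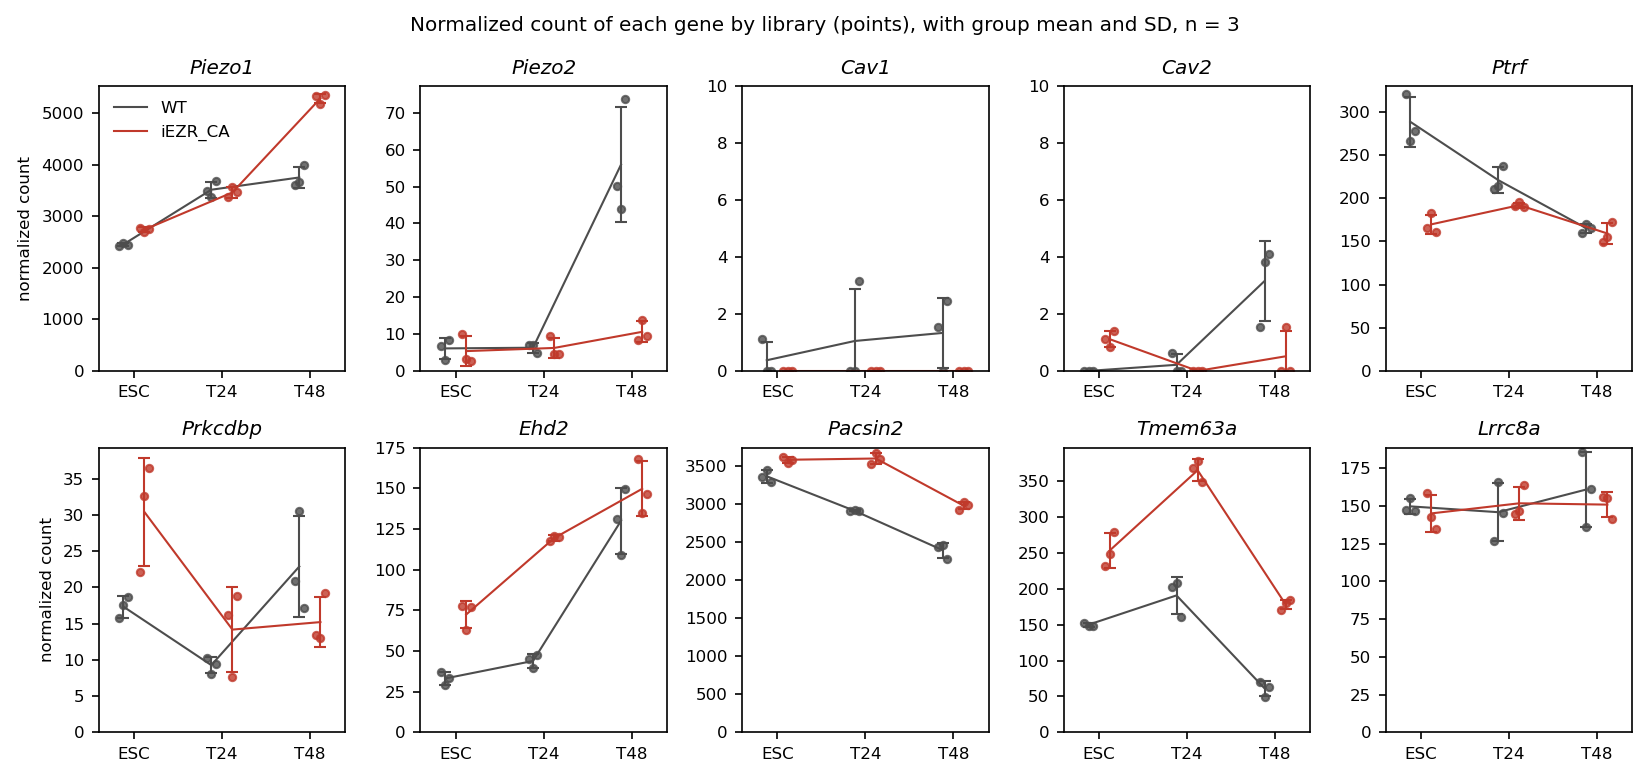
Normalized count (counts divided by DESeq2 size factors) of each gene in each library at ESC, T24 and T48, WT in grey and iEZR_CA in red; points are libraries, lines join group means and bars are SD (n = 3). Piezo1 in iEZR_CA at T48 lies at 5186 to 5357, above all other libraries, and Cav1 and Cav2 are drawn on a scale of 0 to 10.

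Of the cavins, Ptrf (ENSMUSG00000004044, chr11:100956733-100970887, minus strand), which codes for the cavin required for caveola formation, was highest in naive WT cells. Its normalized counts were 321, 266 and 278 in WT ESCs, 211, 214 and 238 at T24 and 160.0, 170.2 and 166 at T48, so the WT groups stepped down without overlap. In iEZR_CA they were 166, 182 and 161 in ESCs, 192, 195 and 189 at T24 and 149.7, 155 and 173 at T48. The level of iEZR_CA ESCs thus resembled that of WT T48, a pair that did not differ in the edgeR test (log2 difference 0.07, adjusted p = 0.56).

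Ptrf was lower in iEZR_CA than in WT ESCs by 1.68-fold (log2 fold change -0.75 ± 0.09 SE, adjusted p = 7.4e-11), and neither the T24 difference (-0.18 ± 0.09, adjusted p = 0.08) nor the T48 difference (-0.05 ± 0.10, adjusted p = 0.68) passed the test. In WT it fell by 0.81 on the log2 scale from ESC to T48 (adjusted p = 1.4e-12), whereas the change in iEZR_CA was -0.12 ± 0.10 (adjusted p = 0.29). The difference between these changes was 0.69 ± 0.13 (adjusted p = 1.4e-05), under 2-fold. Scaling by spike-in sequences, described in the closing section, ended the call of each single WT step of 24 h but not that of the change over 48 h.

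Prkcdbp (ENSMUSG00000037060, chr7:105480083-105482300, minus strand), the cavin that binds protein kinase C delta, was measured on few reads, between 6 and 39 per library. Normalized counts were 15.7, 17.6 and 18.7 in WT ESCs, 10.3, 8.08 and 9.46 at T24 and 20.9, 30.6 and 17.2 at T48, and in iEZR_CA they were 22.1, 32.6 and 36.4, then 16.2, 7.60 and 18.8, then 13.4, 13.1 and 19.2. WT cells had their lowest values at T24, and iEZR_CA ESCs had the highest mean of the 6 groups.

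Prkcdbp was higher in iEZR_CA ESCs than in WT ESCs by 1.72-fold (log2 fold change 0.78 ± 0.27, adjusted p = 0.012), a call lost without iEZR_CA ESC replicate 2 (0.69, adjusted p = 0.071) or replicate 3 (0.67, adjusted p = 0.058). At T24 (0.52 ± 0.37) and T48 (-0.52 ± 0.30) the lines did not pass the test (adjusted p = 0.23 and 0.14); without iEZR_CA T24 replicate 2 the T24 difference was 0.90 (adjusted p = 0.041). From ESC to T48 it fell by 1.03 in iEZR_CA (adjusted p = 0.001) and changed by 0.26 ± 0.29 in WT (adjusted p = 0.42), and the difference of the changes was -1.29 ± 0.41 (adjusted p = 0.0064). WT cells fell by 0.89 to T24 (adjusted p = 0.019), which was lost without WT ESC replicate 3 (adjusted p = 0.052) or WT T24 replicate 2 (adjusted p = 0.064), and then rose by 1.16 ± 0.34 (adjusted p = 0.002).

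Ehd2 (ENSMUSG00000074364, chr7:15946958-15967567, minus strand), which stabilises caveolae at the surface, rose on exit in both lines and was ahead in iEZR_CA. Normalized counts in WT were 37.1, 29.1 and 33.2 in ESCs, 45.1, 39.4 and 47.3 at T24 and 131, 109 and 149.8 at T48. In iEZR_CA they were 77.5, 62.8 and 77.0 in ESCs, 117, 121 and 120.1 at T24 and 168, 135 and 146 at T48. The iEZR_CA libraries lay above all WT libraries in ESCs and at T24, and the lines overlapped at T48.

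Ehd2 was higher in iEZR_CA by 2.17-fold in ESCs (log2 fold change 1.12 ± 0.18, adjusted p = 1.5e-07) and by 2.73-fold at T24 (1.45 ± 0.15, adjusted p = 2.2e-13), and at T48 the difference was 0.16 ± 0.11 (adjusted p = 0.22). WT cells made most of their rise between T24 and T48 (1.61 ± 0.15, adjusted p = 1.7e-15, against 0.41 ± 0.19, adjusted p = 0.058, before it), and over 48 h the gene rose 4.05-fold in WT and 2.09-fold in iEZR_CA (adjusted p = 3.7e-19 and 7e-11). The difference of these changes was -0.95 ± 0.21 (adjusted p = 0.00012), just under 2-fold. The last step in iEZR_CA (0.32 ± 0.12, adjusted p = 0.013) fell to 0.22 (adjusted p = 0.16) without iEZR_CA T48 replicate 1, and the first WT step passed under several alternatives, for example without WT ESC replicate 1 (0.48, adjusted p = 0.046). The median log2 difference of the 141 tested genes within 5 Mb of Ehd2 was -0.19 in ESCs and -0.14 at T24, opposite in sign to Ehd2.

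Pacsin2 (ENSMUSG00000016664, chr15:83375607-83464606, minus strand), the best expressed of the set, moved by small and tightly measured amounts. Normalized counts were 3353, 3444 and 3281 in WT ESCs, 2901, 2914 and 2900.4 at T24 and 2428, 2461 and 2280.1 at T48, each group below the one before it. In iEZR_CA they were 3611, 3537 and 3578 in ESCs, 3521, 3667 and 3589 at T24 and 2919.9, 3015 and 2979.7 at T48, with no step down until after T24. Pacsin2 was higher in iEZR_CA by 0.08 ± 0.03 on the log2 scale in ESCs, 0.31 ± 0.03 at T24 and 0.32 ± 0.03 at T48 (edgeR, adjusted p = 0.019, 7.4e-14 and 3.6e-14 in that order).

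From ESC to T48 Pacsin2 fell by 0.51 in WT (adjusted p = 1.7e-23) and by 0.27 in iEZR_CA (adjusted p = 6.8e-12), and the changes differed by 0.24 ± 0.04 (adjusted p = 3.8e-06). The ESC difference did not pass without WT ESC replicate 3 (adjusted p = 0.086) or iEZR_CA ESC replicate 1 (adjusted p = 0.055), and under spike-in scaling the falls over 48 h were -0.25 in WT (adjusted p = 0.073) and -0.01 in iEZR_CA (adjusted p = 0.96). Gm5417, a pseudogene inside an intron of Pacsin2 on the same strand, had a mean normalized count of 87.7.

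Among the channels, Piezo1 (ENSMUSG00000014444, chr8:122481698-122551329, minus strand) rose on exit and went furthest in iEZR_CA at T48. Its normalized counts in WT were 2429.9, 2481 and 2450.5 in ESCs, 3489, 3372 and 3687 at T24 and 3614, 3661 and 3987 at T48. In iEZR_CA they were 2775, 2688 and 2762 in ESCs, 3366, 3563 and 3463 at T24 and 5326, 5186 and 5357 at T48. The lines overlapped at T24 and were apart in ESCs and at T48, where all iEZR_CA libraries exceeded every WT library.

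Piezo1 was higher in iEZR_CA by 1.11-fold in ESCs (log2 fold change 0.15 ± 0.03, adjusted p = 0.00014) and by 1.41-fold at T48 (0.50 ± 0.03, adjusted p = 5.4e-22), and at T24 the difference was -0.01 ± 0.03 (adjusted p = 0.72). From ESC to T48 it rose 1.52-fold in WT and 1.93-fold in iEZR_CA (adjusted p = 1.5e-25 and 1.5e-36), and these changes differed by 0.35 ± 0.05 (adjusted p = 3.9e-09), under 2-fold. WT cells made their rise by T24 (0.50 ± 0.03, adjusted p = 1.9e-21), and the step after it, 0.10 ± 0.03 (adjusted p = 0.0074), was lost without WT T24 replicate 2 (0.07, adjusted p = 0.12) or WT T48 replicate 3 (0.05, adjusted p = 0.19). iEZR_CA cells made the larger step after T24 (0.61 ± 0.03, adjusted p = 2.2e-26).

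Genes of chromosome 8 as a whole were higher in iEZR_CA, by a median log2 difference over 957 tested genes of 0.18 in ESCs, 0.21 at T24 and 0.18 at T48. Within 5 Mb of Piezo1 the medians over 125 genes were 0.21, 0.25 and 0.12. The ESC difference of Piezo1 (0.15) was no larger than that of its neighbours, the T24 difference was below it and the T48 difference (0.50) was above it. Copy number was not tested. Piezo1 also shares exonic sequence with Ctu2 on the opposite strand, which had a mean normalized count of 1075, and the strand setting of the counting is not given in the sources used here.

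Piezo2 (ENSMUSG00000041482, minus strand) was detected at a low level that rose in WT T48. Its normalized counts were 6.74, 3.06 and 8.51 in WT ESCs, 7.08, 7.07 and 4.73 at T24 and 50.2, 44.0 and 73.7 at T48, from 23 to 90 raw counts in the last group. In iEZR_CA they were 9.97, 3.35 and 2.80 in ESCs, 9.44, 4.56 and 4.69 at T24 and 8.36, 13.8 and 9.59 at T48. Only the 3 WT T48 libraries stood apart from the rest.

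From ESC to T48 Piezo2 rose 9.50-fold in WT (log2 fold change 3.25 ± 0.31, adjusted p = 6.9e-15), and in iEZR_CA the change was 0.997 ± 0.468 (adjusted p = 0.052). At T48 it was 5.31-fold lower in iEZR_CA (-2.41 ± 0.28, adjusted p = 9e-12), and in ESCs and at T24 the lines did not pass the test (-0.16 ± 0.53 and -0.19 ± 0.50, adjusted p = 0.83 and 0.77). The difference of the changes was -2.25 ± 0.64 (adjusted p = 0.0027), which without iEZR_CA ESC replicate 1 was -1.51 (adjusted p = 0.15). Without that library the iEZR_CA change passed the test (1.74, adjusted p = 0.0079), so a rise in iEZR_CA cells rests on the choice of libraries. Even at WT T48 the level was 0.157 ± 0.0447 RPKM (SD, n = 3).

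Tmem63a (ENSMUSG00000026519, chr1:180942344-180975112, plus strand) was higher in iEZR_CA at all 3 stages and dropped in both lines after T24. Its normalized counts in WT were 153, 148 and 148 in ESCs, 203, 208 and 161 at T24 and 70.3, 49.7 and 63.8 at T48. In iEZR_CA they were 231, 249 and 279 in ESCs, 368, 378 and 348 at T24 and 171, 180.0 and 183 at T48. The lines did not overlap at any stage, and all iEZR_CA T48 libraries remained above the WT ESC libraries.

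Tmem63a was higher in iEZR_CA by 1.67-fold in ESCs, 1.87-fold at T24 and 2.78-fold at T48 (log2 fold changes 0.74 ± 0.10, 0.91 ± 0.09 and 1.48 ± 0.12, adjusted p = 7.6e-10, 1.2e-14 and 3.6e-17). It rose to T24 by 0.37 ± 0.10 in WT (adjusted p = 0.00081) and 0.53 ± 0.08 in iEZR_CA (adjusted p = 1.1e-07), then fell by 1.61 in WT and by 1.04 in iEZR_CA (adjusted p = 4.3e-19 and 6e-17). From ESC to T48 the changes of the lines differed by 0.74 ± 0.16 (adjusted p = 8.1e-05). The net fall in iEZR_CA over 48 h, -0.50 ± 0.09 (adjusted p = 2.9e-06), was -0.25 under spike-in scaling (adjusted p = 0.16). The antisense gene 2210411M09Rik, which shares exonic sequence with Tmem63a, had a mean normalized count of 0.503.

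Lrrc8a (ENSMUSG00000007476, chr2:30237715-30263790, plus strand) was the one tested gene of the set with no call in any of the 11 comparisons. Its normalized counts were 147, 155 and 146 in WT ESCs, 127, 166 and 145 at T24 and 185, 136 and 161 at T48, and in iEZR_CA 158, 142 and 134, then 144, 147 and 164, then 156, 155 and 141. All 6 groups overlapped. The log2 differences between the lines were -0.05 ± 0.11, 0.08 ± 0.11 and -0.13 ± 0.11 at the 3 stages (adjusted p = 0.73, 0.53 and 0.32). The WT step from T24 to T48 (0.21 ± 0.11, adjusted p = 0.088) passed without WT T24 replicate 2 (0.31, adjusted p = 0.022) or WT T48 replicate 2 (0.27, adjusted p = 0.034). Lrrc8a shares exonic sequence with Gm28035 on its own strand and 1700084E18Rik on the other, whose mean normalized counts were 0.211 and 4.67.

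**Figure D3:**
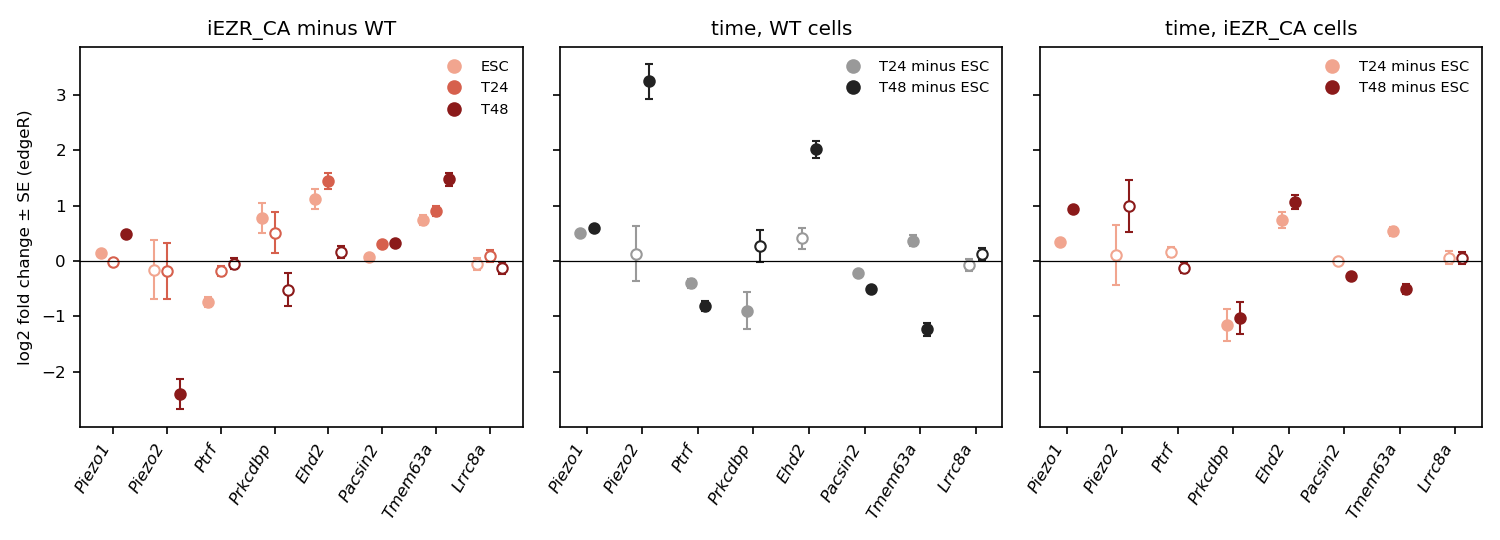
Log2 fold change ± SE (edgeR) of the 8 tested genes, between the lines at each stage (left) and from ESC to T24 and T48 in WT (middle) and iEZR_CA (right); filled points had an adjusted p under 0.05. Ehd2 and Tmem63a lie above 0 in ESCs and at T24 in the left panel, and Piezo2 at T48 lies at -2.41.

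From ESC to T24 in WT, 2 of the 8 tested genes rose and 3 fell (65.4% of all genes called, 31.8% rising and 33.6% falling). From T24 to T48, 4 rose and 3 fell (65.7%, 32.8% and 32.9%), and over 48 h, 3 rose and 3 fell (74.5%, 37.1% and 37.4%). In iEZR_CA 3 rose and 1 fell to T24 (56% of all genes, 27.1% rising and 28.9% falling), 2 rose and 3 fell after it (59.6%, 29.6% and 30%), and 2 rose and 3 fell over 48 h (70.1%, 35.2% and 35%). Changes over 2-fold were found for 0, 4 and 3 of the 8 genes in WT to T24, after T24 and over 48 h (20.8%, 20.6% and 31.3% of all genes) and for 1, 1 and 2 in iEZR_CA (14.9%, 14.5% and 26.1%). Piezo1 and Ehd2 rose and Pacsin2 and Tmem63a fell over 48 h in both lines, while Piezo2 rose and Ptrf fell with a call in WT and Prkcdbp fell with a call in iEZR_CA. For a change that differed between the lines by over 2-fold, the test called none of the 8 at T24 (8.37% of all genes, with 3 of 8 at adjusted p alone, against 38.3%) and Piezo2 and Prkcdbp at T48 (13.1%). At the adjusted p alone, 7 of 8 differed in their change to T48, against 45.8% of all genes.

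The order of the groups differed from gene to gene. Piezo1 ran from WT ESC (lowest) through iEZR_CA ESC, the 2 T24 groups, which did not differ, and WT T48 to iEZR_CA T48. Tmem63a ran from WT T48 through WT ESC, iEZR_CA T48, WT T24 and iEZR_CA ESC to iEZR_CA T24, with iEZR_CA T48 and WT T24 not apart (adjusted p = 0.24). Across the 18 libraries, as a description, Pacsin2 and Tmem63a had a Pearson r of 0.86 on log2 normalized counts, Piezo1 and Ehd2 0.74, and Ptrf and Ehd2 -0.84. The libraries of a group share line and stage, so these values mostly restate group means.

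The genes whose profile over the 18 libraries lay closest to each member, among 12794 with a mean normalized count of at least 50, were Tnnt1, Grk2 and Ascc3 for Piezo1 (r = 0.98, 0.97 and 0.97) and Cutc, Cmtm4 and Agpat3 for Ehd2 (0.99, 0.96 and 0.96). For Pacsin2 they were Mpzl1, Erlin1 and AA414768 (0.99 each), for Tmem63a Gstm2-ps1, Lmo7 and Sh3d19 (0.98 each), and for Ptrf Mboat7, Zfp362 and 1700037H04Rik (0.96, 0.93 and 0.93). Lrrc8a had no close partner, with Slc35e3 nearest at 0.70. No member was among another member's nearest genes.

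Of 11 other caveola proteins and partners, 9 were tested, and in ESCs 1 was higher and 6 were lower in iEZR_CA, with a median log2 difference of -0.53 (-0.01 over all genes, of which 26.4% were called higher and 28.1% lower). At T24 4 were higher and 2 lower (median 0.00), beside 30.8% and 30.1% of all genes. At T48 3 were higher and 5 lower (median -0.35), beside 31% and 30.1%. The direction of the list did not hold at T24. Ror1, a receptor reported to hold caveolin and cavin together, was almost absent from iEZR_CA ESCs (1.30 ± 1.15 normalized counts against 25.2 to 30.7 in the WT libraries, SD, n = 3) and rose in both lines, to 656 ± 35.3 in iEZR_CA and 1398 ± 48.1 in WT at T48. Pacsin1, the neuronal relative of Pacsin2, went the other way from Pacsin2, lower in iEZR_CA at each stage (log2 fold changes -1.70, -0.91 and -1.13, adjusted p = 4.5e-23, 5.4e-08 and 9.2e-12). Ehd1, a relative of Ehd2 that works in endocytic recycling, was far more abundant than Ehd2 (80.1 against 0.307 RPKM in WT ESCs) and fell in WT by 1.44 on the log2 scale over 48 h, where Ehd2 rose. Dnm2, the dynamin that cuts membrane necks, was higher in iEZR_CA at T48 by 0.88 ± 0.04.

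Of 12 other stretch-modulated channels and their subunits, 9 were tested, with 4 higher and 2 lower in iEZR_CA in ESCs, 5 and 2 at T24 and 2 and 2 at T48, beside 54.5%, 60.9% and 61.1% of all genes called. Mdfic, which codes for an auxiliary subunit of PIEZO channels, was higher in iEZR_CA at each stage (log2 fold changes 0.63 ± 0.05, 1.89 ± 0.06 and 1.41 ± 0.09, adjusted p = 2.7e-16, 1.1e-35 and 1.1e-21) and fell over 48 h in both lines, by 2.59 in WT and by 1.82 in iEZR_CA, while Piezo1 rose. Trpv4, a cation channel that responds to swelling, fell by 4.02 in WT and by 4.50 in iEZR_CA over 48 h. Its largest difference between the lines at any stage had an absolute size of 2.18 on the log2 scale (adjusted p under 0.05), above that of Mdfic. Tmem63b, the relative of Tmem63a, was the more abundant of the pair (12.6 against 1.58 RPKM in WT ESCs) and differed between the lines by at most 0.26 on the log2 scale.

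All 4 other LRRC8 subunits, which pair with LRRC8A in the anion channel, were tested and none differed between the lines in ESCs; at T24 2 were higher and 1 lower, and at T48 1 was higher and 1 lower (54.5%, 60.9% and 61.1% of all genes called at the 3 stages). Lrrc8d had the highest level of the 5 subunits in WT ESCs (5.73 RPKM against 1.65 for Lrrc8a), and Lrrc8c rose over 48 h by 1.94 ± 0.15 in WT and by 1.88 ± 0.16 in iEZR_CA (adjusted p = 1.5e-18 and 2.6e-17) while Lrrc8a did not pass the test. Of 5 curvature-sensing proteins outside caveolae, 1 was higher and 2 lower in iEZR_CA in ESCs, 1 and 2 at T24 and 3 and 0 at T48, beside the same shares of all genes, with the largest differences in Baiap2 at T24 (0.94 ± 0.06, adjusted p = 8.6e-21) and Fnbp1 at T48 (0.65 ± 0.04).

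**Figure D4:**
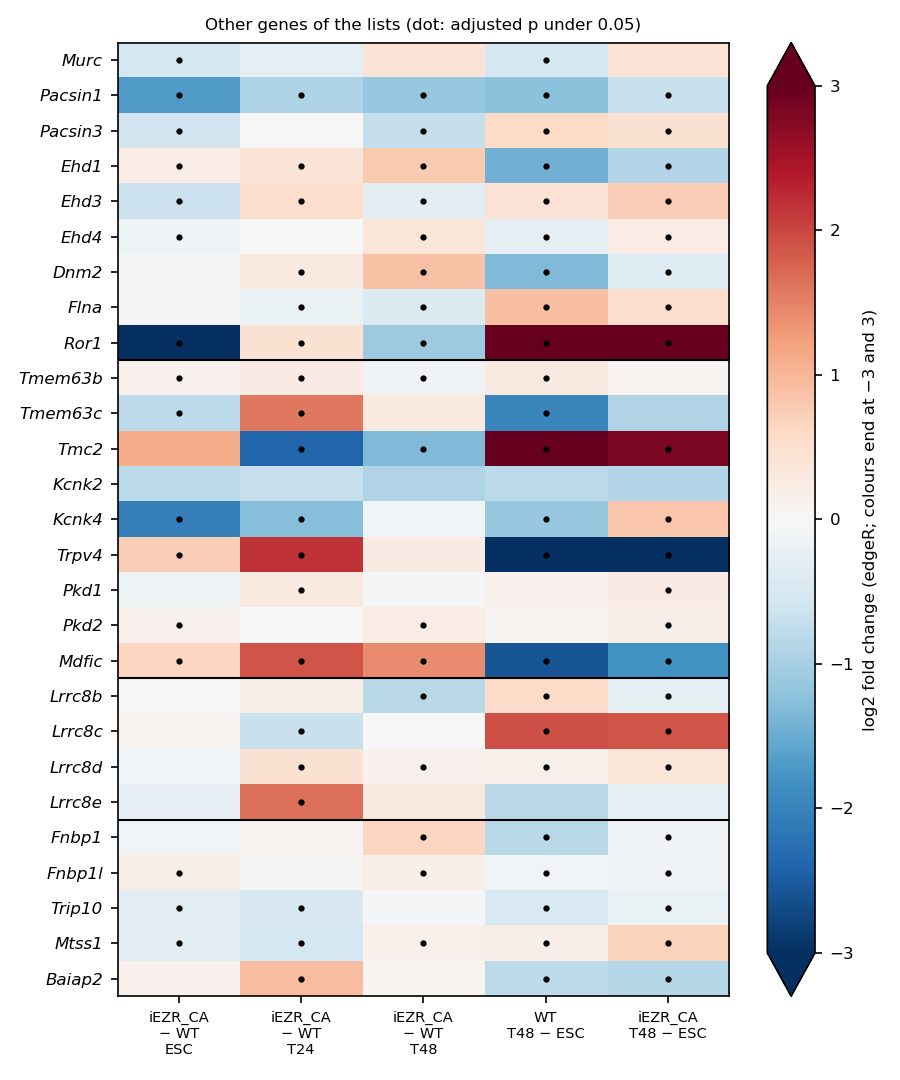
Log2 fold change (edgeR) of the tested genes of the 4 other lists (caveola partners, channels, LRRC8 subunits, curvature sensors, from top to bottom) between the lines at each stage and from ESC to T48 in each line; colour runs from -3 to 3 and dots mark an adjusted p under 0.05. Pacsin1 is blue and Mdfic red in all 3 columns of the line difference.

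Caveolae are abundant in fibroblasts and endothelium, so markers of these cells are given beside the caveolin counts. Of 8 fibroblast markers, Postn had 0 counts in 5 of the 6 groups, and the summed normalized count had a median of 229 in WT ESCs, 94.9 at T24 and 644 at T48 (Dcn, 227 ± 14.4), and of 196, 120.0 and 425 in iEZR_CA (Dcn at T48, 331 ± 30.1), lowest at T24 in both lines. Of the 5 tested, 1 was higher in iEZR_CA at T48 and 4 were lower (median log2 difference -1.58), beside 31% and 30.1% of all genes. Pdgfrb gave 80.8% of the sum in WT ESCs, and Dcn gave 34.7% at T48 in WT and 77.5% in iEZR_CA. Of 6 endothelial markers, Emcn had 0 counts in all groups, and the sum ran from 447 to 785 in WT and from 585 to 830 in iEZR_CA as group medians, mostly from Tek. Primitive endoderm markers summed to 256 in WT and 770 in iEZR_CA ESCs, of which Dab2 gave 81.5% in iEZR_CA, and trophectoderm markers to 2940 and 1966, mostly Tfap2c. Of 7 primitive endoderm markers, 2 were higher in iEZR_CA ESCs and 2 lower (median log2 difference -0.01), beside 26.4% and 28.1% of all genes. Beside the same shares, 2 of the 4 tested trophectoderm markers were higher in iEZR_CA ESCs and 1 was lower (median 0.44). The lower trophectoderm sum is thus that of Tfap2c, which gave 97.6% of it in WT ESCs. Of the 4 tested endothelial markers, 2 were higher in iEZR_CA ESCs and 1 was lower (median 0.04). The part of such cells in the differences of Ptrf, Prkcdbp and Ehd2 was not tested.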

How the data were processed

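RNA-seq counts of 18 libraries were used, 3 biological replicates per group, grouped by the labels' cell line and exit time. The deposited values are raw counts per gene with no normalization; per the submitters' processing notes and the study's methods, paired polyA reads were trimmed by the authors (Trim Galore 0.6.5), mapped by GSNAP to the GRCm38 build and summed per gene by HTSeq. Reads outside genes (21.3% to 24.3%) and 92 ERCC spike-in sequences (0.575% to 0.884%) stayed out of library sizes. edgeR 4.0.16 (R 4.3.3; TMM, filterByExpr, robust quasi-likelihood F test) was fitted once to all libraries, with Benjamini-Hochberg adjustment over 18469 genes; interactions also needed over 2-fold and a mean above 5, the study's thresholds. Normalized counts are counts divided by DESeq2 1.42.0 size factors. RPKM uses GENCODE M21 exon lengths. The fit was tested on simulated data. All 10 genes are named, with the up to 4 genes of each other list that differed most between the lines (mean of at least 50) and the 3 genes most like each member. Postn, Emcn, Sdpr, Murc and Cav3 were named after their values were seen. Members and lists were chosen with earlier results of these data known. Alternatives were DESeq2 size factors, the DESeq2 Wald test, spike-in scaling, other count filters, only the groups compared, a 2-fold threshold and leaving out each library.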

Additional observations from a re-analysis of the deposited data

Results flagged for a closer look

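Piezo2 and Prkcdbp changed differently in the 2 lines from ESC to T48 by the interaction term of the edgeR fit. For Piezo2 the change in iEZR_CA minus that in WT was -2.25 on the log2 scale (adjusted p = 0.0027), with all 3 WT T48 libraries above all iEZR_CA T48 libraries, and it rests on iEZR_CA ESC replicate 1, without which it was -1.51 (adjusted p = 0.15). For Prkcdbp it was -1.29 (adjusted p = 0.0064), on 6 to 39 counts per library.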

How the results depend on the processing

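No paired analysis was possible because the labels carry no replicate numbers; the numbers used here follow accession order and only name a library. Of 2085 values of single genes under the alternatives, 2003 kept their direction and side of the threshold, 32 lost a call, 16 gained one and 34 changed sign. Requiring over 2-fold left calls for 1, 1 and 2 genes between the lines (ESC, T24, T48), 0, 4 and 3 in WT (to T24, after T24, over 48 h) and 1, 1 and 2 in iEZR_CA; the adjusted p alone gave 3 and 7 for the interactions to T24 and T48. Spike-in scaling, which moved the median of all genes by 0.13 in each WT step and by 0.27 over 48 h, called 3 genes in WT to T24, 4 after T24, and 2 in iEZR_CA after T24. Calls over the whole table fell as well. In the same comparisons spike-in scaling called 8632, 8823 and 6931 of 18469 genes, against 12082, 12137 and 11015 with TMM. Spike-in counts per 1000 gene counts were uneven between replicates, most so in iEZR_CA T48 (11.7, 7.64 and 8.55). Calls lost under this scaling, as for Pacsin2 and Tmem63a in iEZR_CA over 48 h, are to be read with that spread. With at least 10 counts in every library the interaction to T48 called 0 of 6 genes, since Piezo2 and Prkcdbp were not tested. Leaving out 1 library gave 1 to 3 genes for that interaction.

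Each sign change concerned a value that had not passed the test. Under spike-in scaling they were Lrrc8a between the lines in ESCs (0.0029), in WT to T24 (0.077) and in iEZR_CA after T24 (0.088), Piezo1 between the lines at T24 (0.054), Ptrf in iEZR_CA over 48 h (0.15) and Piezo2 in the interaction to T24 (0.0013). Lrrc8a in iEZR_CA after T24 was 0.0086 with at least 10 counts and 0.0031 with only the groups compared, and the Piezo2 interaction to T24 was 0.0013 in the DESeq2 Wald test. Leaving out 1 library moved Piezo2 between -0.90 and 0.21 (lines, ESC), -0.50 and 0.018 (lines, T24), -0.24 and 0.50 (WT to T24), -0.23 and 0.85 (iEZR_CA to T24) and -0.40 and 0.71 (interaction to T24). It moved Lrrc8a between -0.039 and 0.19 (lines, T24), -0.18 and 0.047 (WT to T24), -0.042 and 0.058 (iEZR_CA after T24) and -0.15 and 0.040 (interaction to T48). Piezo1 ran from -0.044 to 0.014 (lines, T24), Pacsin2 from -0.012 to 0.020 (iEZR_CA to T24), and Prkcdbp from -0.26 to 0.45 (iEZR_CA after T24) and from -0.59 to 0.13 (interaction to T24). The cause was not tested. Depth limits the caveolins, Piezo2 and Prkcdbp.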
